A study of Danio rerio with 24 samples.

Results

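The 0.3 ppb arrays of replicates 3, 5 and 6 were labelled as zebrafish ovary. Relative to controls, marker genes of brain were far higher on them and those of ovary far lower. These arrays are set here against the 0 ppb arrays of the same replicates, 3 arrays on each side and 6 of the 24 arrays of the study. By the labels and the study's methods, all came from adult wild-type females of the AB strain. Their age by the labels was 5 to 6 months post fertilization (mpf). By the same sources they had been kept as embryos in 0.3 ppb atrazine or in 0 ppb. This lasted from 1 to 72 hours post fertilization (hpf), and they were then raised in clean water. Atrazine is a herbicide and suspected endocrine disruptor, and the study asked what embryonic exposure does to the adult ovary. The 3 brain-like arrays were chosen on their measured levels, with very high fabp7a and stmn1b and with zp2.2 and zp2.3 far under the controls. The contrast is therefore that of a brain-like RNA with an ovary RNA and does not measure an effect of atrazine. Because the choice used this contrast, every value of the contrast is a description, with no test.

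Total RNA of each sample was labelled with Cy3 and read on a custom one-color Agilent array, so that the brightness of a spot reflects the RNA bound by its probe. The levels given are log2 intensities relative to the 75th percentile of the same array, and a difference is the mean of the 3 slide pairs, 0.3 ppb minus 0 ppb of the same replicate number, with its SD (n = 3 pairs). Values on a side are listed in the order replicate 3, 5 and 6. By the study's methods 6 adult females were sampled per treatment. Each replicate number had its own slide, and treatment always went with position on the slide, so that those 2 cannot be told apart. In RNA from whole tissue, fewer cells of a type and less RNA per cell cannot be told apart either.

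The 75th percentile of intensity was 417.4, 1076 and 1022 on the brain-like 0.3 ppb arrays, against 1501, 2242 and 1856 on the 0 ppb arrays, and 68.5%, 87.9% and 80.8% of probes were well above background, against 73.9%, 87.2% and 82.8%. The dimmest was the brain-like array of replicate 3, where 16.7% of targets lay under the lowest signal well above background, against 2.17% to 9.31% on the other 5 arrays. All 6 arrays had a good spot grid. Levels correlated across 62066 targets with r of 0.888 to 0.975 among the 3 brain-like arrays and 0.946 to 0.972 among the 3 controls, but with only 0.452 to 0.523 between the sides. The 0.3 ppb arrays of replicates 2 and 4, labelled alike, had r of 0.926 to 0.965 with the 3 controls and 0.453 to 0.52 with the 3 brain-like arrays. Those values share arrays and probes and are given without a test.

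The brain and the ovary of a teleost express very different genes. Neurons carry stathmins, synaptic proteins and neuropeptides, while radial glia, which persist in the adult fish brain, carry fabp7a and the brain aromatase cyp19a1b. The ovary is dominated by oocytes, which load their cytoplasm with maternal transcripts and, in zebrafish, make zona pellucida proteins for the egg coat. Around them, follicle cells make steroids.

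The 6 genes that mark the 2 tissues were read first. The radial glial fatty acid binding protein fabp7a had levels of 7.33, 7.33 and 7.39 on the brain-like 0.3 ppb arrays, against 1.35, 1.72 and 2.76 on the 0 ppb arrays. For stmn1b, a neuronal stathmin that binds tubulin, they were 7.09, 6.97 and 7.10, against -2.78, -4.62 and -4.1. Brain aromatase, cyp19a1b, stood at 2.49, 2.31 and 2.72, against -8.13, -6.72 and -6.37, where it was well above background on 2 of 3. These control levels lay under the lowest signal well above background on those arrays, at -6.36, -6.50 and -6.01, so its difference rests on signal near the floor. In these 3 brain genes the sides did not overlap, and the differences were 5.41 ± 0.70, 10.88 ± 0.90 and 9.58 ± 0.90.

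The egg coat gene zp2.2 had levels of -1.38, -2.10 and -2.50 on the brain-like arrays, against 8.06, 7.74 and 7.94 on the controls. Its relative zp2.3 had 1.21, -1.14 and -2.47, against 8.11, 7.83 and 8.06. The claudin cldnd, a member of a family of tight junction proteins, had 1.27, -1.35 and -1.80, against 8.02, 7.87 and 7.90. These 3 genes were lower by differences of -9.91 ± 0.50, -8.80 ± 1.82 and -8.55 ± 1.58, with the brain-like array of replicate 3 the highest of its side each time. On the 14 other arrays of replicates 2 to 6, zp2.2 lay between 7.65 and 8.36, stmn1b between -4.95 and -2.57 and fabp7a between -0.94 and 3.14. Since the arrays were chosen on fabp7a, stmn1b, zp2.2 and zp2.3, nothing is read from how these genes set them apart from the 14. Within the contrast, every probe of the 6 genes had the direction of its gene, for example with differences of 5.28 to 5.54 over the 7 probes of fabp7a.

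**Figure D1:**
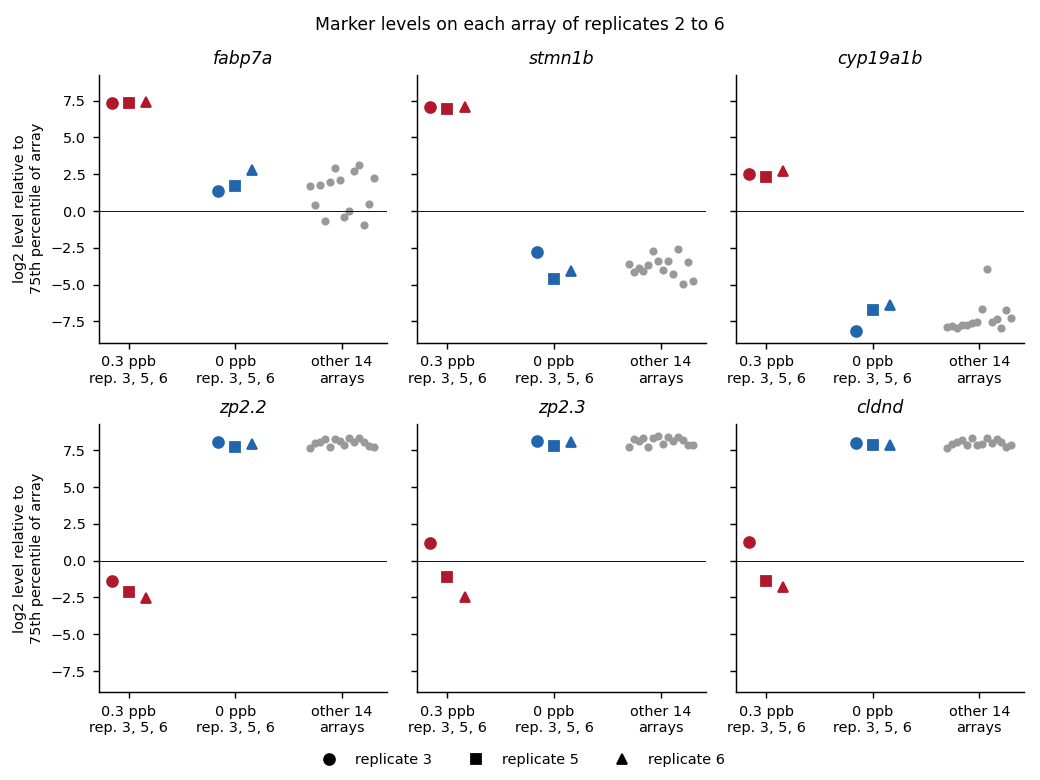
Levels of 6 marker genes (log2 relative to the 75th percentile of the array, vertical axis) on the 0.3 ppb arrays of replicates 3, 5 and 6 (red), the 0 ppb arrays of the same replicates (blue) and the 14 other arrays of replicates 2 to 6 (grey), 1 point per array. The brain-like arrays are above all others for fabp7a, stmn1b and cyp19a1b and below all others for zp2.2, zp2.3 and cldnd.

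A target was counted where all 3 slide pairs differed in 1 direction and the mean difference was at least 1.5-fold, the fold used in the study's methods. Of 62066 targets measured, 28649 (46.2%) were higher and 17162 (27.7%) lower on the brain-like arrays, and the median difference over all targets was 0.50. Among the 12918 genes with a symbol the balance was the other way, with 4119 (31.9%) higher and 5662 (43.8%) lower and a median of -0.36. These shares are the background for each list below, and since the arrays were chosen on this contrast nothing is read from them. The balance depends on how arrays are scaled: of the targets counted, 62.5% were higher as reported, 50.8% after quantile normalization, 48.1% after scaling to the median, 27.8% after scaling to the spike-in controls and 72.9% after normexp background correction.

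Most targets were detected on both sides, a target being taken as detected where any of its kept probes was well above background. Of the targets, 45302 (73%) were well above background on all 6 arrays, 1735 (2.8%) on all 3 brain-like arrays and on none of the controls, and 1094 (1.76%) on all 3 controls and on none of the brain-like arrays. The remaining 13935 (22.5%) were detected on part of at least 1 side. Of the targets detected on all 6 arrays, 48.5% were higher and 26.6% lower, near the 46.2% and 27.7% over all targets. Only 3460 targets detected on all 6 arrays stayed within 1.5-fold in every pair. In 40820 targets the levels of the 2 sides did not overlap.

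**Figure D2:**
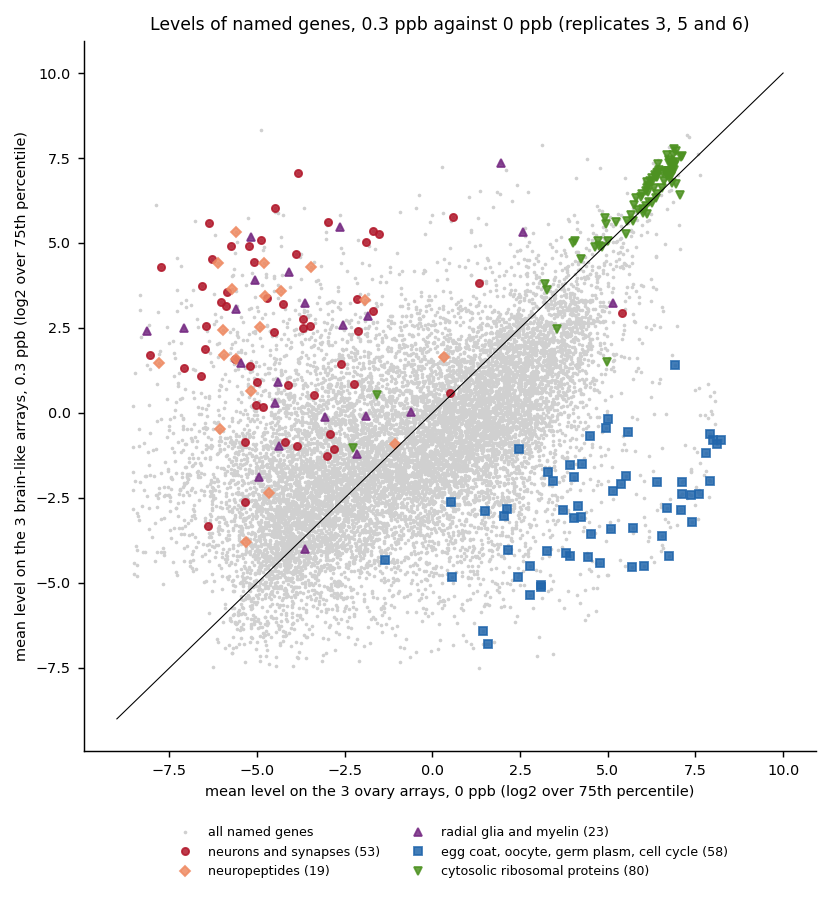
Mean level of each named gene on the 3 brain-like 0.3 ppb arrays (vertical axis) against its mean level on the 3 ovary 0 ppb arrays (horizontal axis), both as log2 relative to the 75th percentile of the array, with the line of equal levels. Neuronal genes (red) other than uchl1, neuropeptides (orange) and most glial and myelin genes (purple) lie above the line, oocyte genes (blue) below it and most ribosomal protein genes (green) close to it, with rpl7l1 well below.

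Neuronal genes stood far above the ovary. Of 17 genes of the neuronal cytoskeleton and other pan-neuronal genes measured, 16 were higher and 1 lower, with a median difference of 7.06. This count includes stmn1b, on which the arrays were chosen. The stathmin stmn2a had levels of 5.39, 5.63 and 5.72 on the brain-like arrays, against -7.28, -5.71 and -6.15 on the controls, a difference of 11.96 ± 0.67. In replicates 3 and 6 its control levels lay under the lowest signal well above background, at -6.36 and -6.01. For stxbp1a, which binds syntaxin and primes vesicles for release, they were 4.20, 4.59 and 4.76, against -6.99, -6.11 and -5.74. The neuronal RNA-binding protein elavl3 was not well above background on any control and was at least 256-fold higher on the brain-like arrays. The exception was the deubiquitinating enzyme uchl1, with 2.71, 2.87 and 3.22 on the brain-like arrays, against 5.52, 5.41 and 5.29 on the controls.

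At the synapse, 11 of 12 genes of vesicle release were higher, with a median of 6.56. The SNARE protein snap25b had 4.59, 5.01 and 5.15 on the brain-like arrays, against -6.44, -5.20 and -5.58. The ATPase nsfa, which takes spent SNARE complexes apart, differed by 9.96 ± 0.92 and the vesicle GTPase rab3ab by 9.04 ± 0.45. The remaining gene, rab3aa, differed by 0.10 ± 0.57.

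Genes of inhibitory and of excitatory transmission were higher alike. All 12 genes of GABA and glycine signalling and all 12 of glutamate signalling were higher, with medians of 6.67 and 5.98. The GABA transporter slc6a1b had 5.79, 5.96 and 6.30 on the brain-like arrays, against -5.47, -3.83 and -4.18, and gad1b, which makes GABA, differed by 8.12 ± 0.75. Among glutamate genes, the AMPA receptor subunit gria2b differed by 9.41 ± 0.73, the vesicular transporter slc17a6a by 7.68 ± 0.39 and the NMDA receptor subunit grin1b by 7.24 ± 0.41.

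Genes of monoamines and acetylcholine were less uniform, with 9 of 12 higher and a median of 2.55. Acetylcholinesterase, ache, differed by 8.06 ± 0.56. The rate-limiting enzyme of dopamine synthesis, th, differed by 4.1 ± 0.35, its relative th2 by 6.08 ± 1.30 and tph2, which starts serotonin synthesis in neurons, by 3.67 ± 0.60. Not counted were the decarboxylase ddc (-0.30 ± 0.50), the dopamine transporter slc6a3 (0.25 ± 0.43) and the vesicular monoamine transporter slc18a2 (0.46 ± 0.50).

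Neuropeptide genes had the highest median of the 34 lists, 7.65, and 18 of 19 were higher. Oxytocin, oxt, had 5.86, 3.23 and 6.91 on the brain-like arrays, against -6.38, -4.89 and -5.52 on the controls, a difference of 10.93 ± 2.44. The satiety peptide gene cart2 differed by 10.52 ± 0.82 and tac1, the precursor of substance P, by 9.36 ± 0.83. Of the gonadotropin releasing hormones, gnrh2 had -0.21, 1.05 and 1.14, against -6.09, -4.54 and -4.87, and gnrh3 had -4.24, -3.23 and -3.96, against -5.20, -5.12 and -5.64. The gene not counted was kiss2, with 0.16 ± 0.66.

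Pituitary genes could not be read as a list. Of 10 pituitary genes on the array 6 were measured, and 1 was higher and 4 lower, with a median of -0.77. The higher one was pomca, precursor of corticotropin and made in the hypothalamus as well as in the pituitary, with -0.64, 1.00 and 0.87 on the brain-like arrays, against -2.90, -2.69 and -3.11. Follicle stimulating hormone, fshb, had -5.18, -3.56 and -3.89, against -4.29, -2.85 and -2.92, and its difference of -0.86 ± 0.14 turned to 0.026 with normexp background correction. Luteinizing hormone, lhb, growth hormone, gh1, somatolactin, smtla, and the pituitary factor pou1f1 were well above background on only 2 of the 3 brain-like arrays. These genes passed the filter only through the controls, so nothing is read from the count of lower genes. The list's median was 0.26 with normexp and 1.22 over the 2 genes well above background on all 6 arrays.

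Glia and myelin were present beside neurons. Of 13 radial glial and astroglial genes, 11 were higher and 1 lower, with a median of 5.13. This count includes fabp7a, on which the arrays were chosen, and the marker cyp19a1b. The Notch target her4.1 had 3.39, 2.65 and 3.14 on the brain-like arrays, against -4.95, -6.20 and -5.62. The stem cell factor sox2 differed by 6.94 ± 0.78, the glial glutamate transporter slc1a2b by 6.85 ± 0.64 and the intermediate filament gfap by 4.78 ± 0.60, and the calcium binding protein s100b was at least 420-fold higher. Aquaporin 4, aqp4, was not counted (-0.35 ± 0.11). The lower gene was glulb, a glutamine synthetase, with 3.01, 3.22 and 3.48 on the brain-like arrays, against 5.28, 5.01 and 5.11. All 10 myelin and oligodendrocyte genes were higher, with a median of 4.35. Among them mpz, a protein of central myelin in fish, had 4.95, 5.38 and 5.23, against -6.09, -4.70 and -4.70, and olig2, the factor that sets oligodendrocyte fate, differed by 8.98 ± 0.66. The smallest difference was that of mbpb, 0.63 ± 0.31.

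Factors of the fore- and midbrain were mostly higher. Of 10 forebrain factors 7 were higher, of 10 hypothalamic and thalamic factors 9, and of 17 midbrain and cerebellar factors 15, each list with 1 gene lower and with medians of 3.43, 2.96 and 4.63. The forebrain factor dlx1a, which directs inhibitory neurons, had 0.85, 0.19 and 0.90 on the brain-like arrays, against -5.59, -4.28 and -4.58. Its relative dlx5a differed by 5.52 ± 0.86, and dlx2a, not well above background on any control, was at least 22.8-fold higher. The hypothalamic factor nkx2.1 differed by 4.53 ± 0.09. Among midbrain and cerebellar genes, neurod1 differed by 8.93 ± 0.40, zic2a by 8.86 ± 0.33 and pvalb7, a parvalbumin of Purkinje cells in zebrafish, by 8.34 ± 0.78. The 3 genes counted lower were eomesa (-2.52 ± 0.38), otpb (-1.52 ± 0.65) and otx1 (-1.76 ± 0.47). The pallial factor eomesa had -0.62, -0.91 and -0.35 on the brain-like arrays, against 1.98, 1.95 and 1.77.

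Hox genes, which pattern the hindbrain and spinal cord, showed no common direction. Of 13 hindbrain and spinal cord factors measured of 18 on the array, 4 were higher and 3 lower, with a median of -0.10. Those higher were mafba (2.53 ± 0.68), hoxd3a (1.97 ± 0.88), hoxd4a (1.78 ± 0.73) and hoxb3a (1.62 ± 0.98), genes of the hindbrain. Those lower were the trunk genes hoxb8a (-0.61 ± 0.29), hoxa9a (-1.05 ± 0.73) and hoxc10a (-1.48 ± 0.66), of which hoxb8a and hoxa9a turned to 0.33 and 0.37 with normexp. On the brain-like arrays hoxa9a was well above background on only 2 of 3 and hoxc10a on 1.

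Other cells of the brain were read from 3 further lists. Of 11 microglial and macrophage genes 7 were higher and 1 lower, with a median of 1.97. Relative to the mean of the 3 controls, the list's median was 1.62, 2.31 and 1.92 on the brain-like arrays. On the 14 other arrays it ranged from -1.72 to 2.51, so that this median does not set the brain-like arrays apart. Invariant chain, cd74a, which guides antigen presentation, had 5.02, 5.33 and 5.48 on the brain-like arrays, against 1.06, -1.01 and -0.71, and mpeg1.1, a macrophage gene, had -0.09, 0.08 and 0.29, against -2.45, -3.34 and -3.76. Apolipoprotein apoeb was lower (-1.06 ± 0.26). Of 8 endothelial genes 3 were higher and 3 lower, near the shares of 31.9% and 43.8% over all genes with a symbol. Claudin 5, cldn5a, a seal of the blood-brain barrier, differed by 2.54 ± 0.17, and the lipid transporter mfsd2aa, which belongs to the same barrier, by -2.80 ± 0.38.

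Of 10 immediate early genes, which neurons switch on with activity, 8 were higher and 2 lower, with a median of 2.97. The transcription factor egr4 had 5.23, 5.61 and 5.76 on the brain-like arrays, against -3.34, -2.65 and -3.03. The activity-dependent factor npas4a differed by 6.35 ± 0.16. The phosphatase dusp1 went the other way, with -0.02, -0.42 and -0.38, against 4.49, 4.29 and 3.82, and so did the nuclear receptor nr4a1, with -1.51, 0.21 and 0.45, against 0.99, 0.94 and 0.99.

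**Figure D3:**
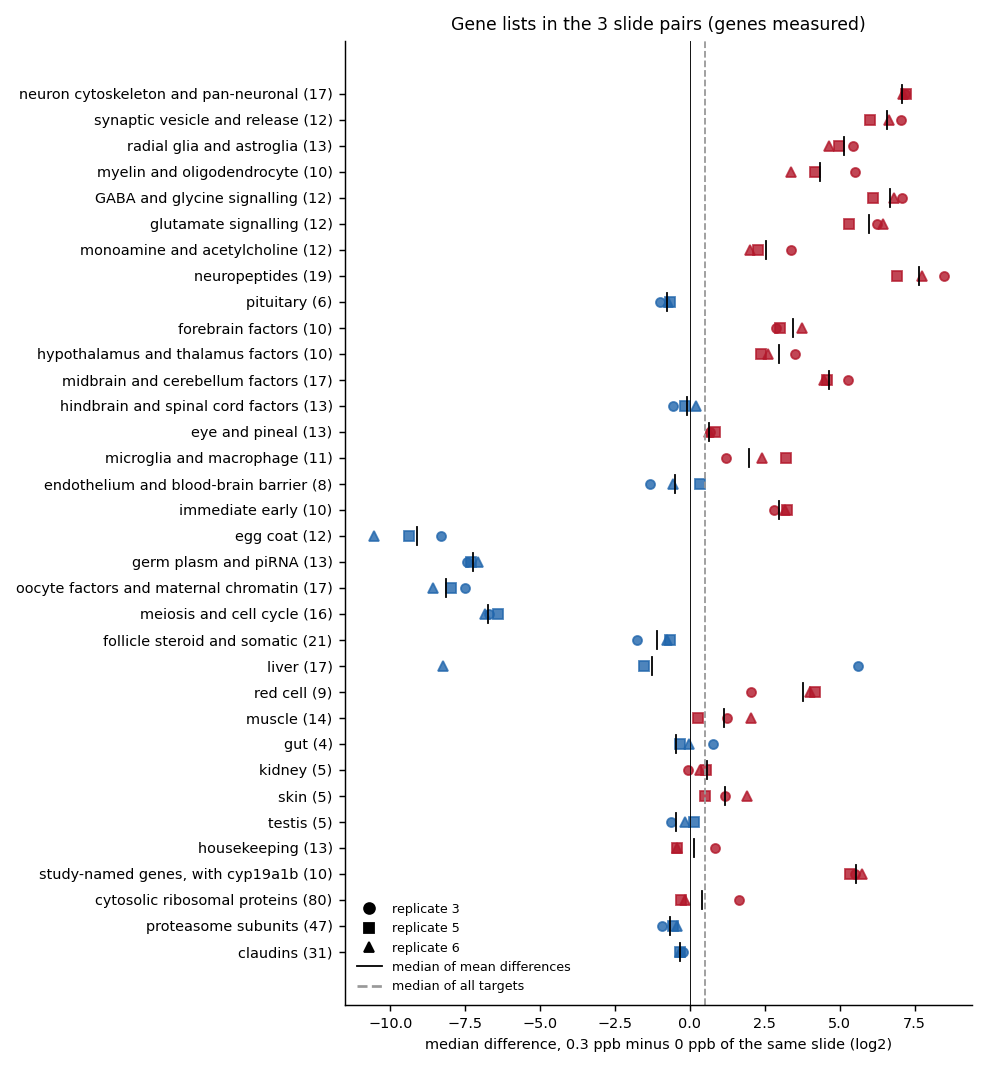
Median difference of each gene list (0.3 ppb minus 0 ppb, log2, horizontal axis) in the slide pairs of replicates 3 (circle), 5 (square) and 6 (triangle), coloured red or blue where the median of the mean differences (black bar) is above or below 0, with the median of all targets dashed. All 3 pairs lie above 0 for the neuronal, glial and myelin lists and below 0 for the egg coat, germ plasm, oocyte and meiosis lists, while the liver list runs from 5.59 in the pair of replicate 3 to -8.23 in the pair of replicate 6.

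Oocyte transcripts were lower on all 3 brain-like arrays than on the controls. All 12 egg coat genes, 13 germ plasm and piRNA genes, 17 oocyte and maternal chromatin genes and 16 meiosis and cell cycle genes were lower, with medians of -9.12, -7.25, -8.15 and -6.73. The egg coat count includes zp2.2 and zp2.3, on which the arrays were chosen, and the oocyte count includes the marker cldnd. The egg coat gene zp3a.1 had -1.39, -3.38 and -4.83 on the brain-like arrays, against 7.51, 7.22 and 7.43 on the controls. Of the germ line, buc, which organizes the Balbiani body of the zebrafish oocyte, had -3.33, -4.36 and -5.04, against 4.43, 4.31 and 4.56, and the RNA helicase ddx4 (vasa) had -6.48, -6.62 and -6.15, against 1.54, 1.33 and 1.48. On the brain-like arrays every one of these genes stood below every control. The levels of ddx4 there lay under the lowest signal well above background, at -4.71, -5.77 and -5.27.

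The maternal factor zar1, which acts at the oocyte-to-embryo transition, differed by -9.48 ± 0.05, and its relative zar1l by -10.00 ± 1.69. The oocyte growth factors bmp15 and gdf9, which signal to follicle cells, differed by -8.15 ± 0.38 and -7.33 ± 0.49. Cyclin B1, ccnb1, part of the factor that drives maturation, had -2.86, -3.24 and -4.08 on the brain-like arrays, against 5.68, 5.75 and 5.70. Smaller differences were those of sycp3, of the meiotic chromosome axis (-2.97 ± 0.46), and of the replication clamp pcna (-3.13 ± 0.69).

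Genes of the follicle wall were mixed, with 12 of 21 lower and 5 higher and a median of -1.11. The steroid enzymes were lower. For cyp11a1.1, which cuts the cholesterol side chain, levels were -3.17, -3.67 and -3.59 on the brain-like arrays, against 4.89, 3.97 and 4.71 on the controls. The next enzymes, cyp17a1 and hsd3b2, differed by -7.26 ± 0.39 and -4.80 ± 0.99, and the somatic growth factor gsdf by -4.24 ± 0.50. Higher were the inhibin and activin subunits inhbb (2.85 ± 0.20), inhbaa (1.51 ± 0.94) and inha (0.60 ± 0.21) and the steroidogenic factors nr5a1b (1.68 ± 0.44) and nr5a1a (0.94 ± 0.76). Of these 5, only inhbb stayed higher when arrays were scaled to the spike-in controls, where the other 4 had differences of -0.17, -1.08, -0.004 and -0.74 in the order given.

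Both aromatases were on the array, and they differed in opposite directions. Ovarian aromatase, cyp19a1a, had -5.11, -2.69 and -3.02 on the brain-like arrays, against -0.71, -0.76 and -1.21 on the controls (-2.71 ± 1.46). A list of genes that the study assayed or discussed took both copies for its human-style symbol CYP19A1, though the study's assay named only the ovarian one. With the marker cyp19a1b on it, 8 of the 10 genes were higher and 2 lower, with a median of 5.53, and nothing is read from that count. Those higher included the neuropeptides vip (8.41 ± 0.26), adcyap1b (7.77 ± 0.76) and adcyap1a (5.60 ± 1.01), the binding protein crhbp (7.19 ± 0.29) and the cytochrome cyp1b1 (5.47 ± 0.63). The cholesterol carrier star had -4.42, -3.21 and -3.80, against -1.92, -2.30 and -2.39. ACE and HPGD, which the study also assayed, were not on the list. In its own qPCR over the treatments, run by its methods on the array samples, the study reported VIP as down. It reported STAR, CYP19A1, CYP1B1 and CRHBP as up. On its arrays it described VIP as down too, and CYP19A1, CYP1B1, CRHBP and ADCYAP1 as up. Those results cover all treatments and are not of these slide pairs. In this contrast vip, star and cyp19a1a went the other way, and cyp1b1, crhbp, adcyap1a and adcyap1b the same way. The mean of all 0.3 ppb arrays holds these 3 brain-like arrays.

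Outside the lists, the largest differences measured on all 6 arrays were those of epd, an ependymin secreted in the fish brain (13.20 ± 0.84), of dhrs12la (11.48 ± 0.18) and of the vesicle protein syt4 (10.97 ± 0.32). For epd the levels were 8.44, 8.07 and 8.45 on the brain-like arrays, against -5.62, -4.30 and -4.72 on the controls. Next came nrgnb, olfm1a, neff2, ndufa4b, vamp1a, gpm6aa and camk2n2a, between 9.89 and 10.60. The control levels of dhrs12la were -7.42, -7.11 and -6.95. They lay under the lowest signal well above background on those arrays, at -6.36, -6.50 and -6.01. So did those of olfm1a in replicates 3 and 6, of nrgnb and vamp1a in replicate 3 and of camk2n2a in replicate 6. Among the list genes, it held for example for stxbp1a, snap25b and rab3ab in replicate 3. The differences of these genes thus rest wholly or in part on control signal near the floor. Among genes not well above background on any control, the secretory granule chaperone scg5 was at least 5382-fold higher, and cdk5r2a, a neuronal activator of Cdk5, at least 1819-fold.

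In the other direction, ppt2a.4 differed by -10.45 ± 1.74, the egg coat gene zp3.2 by -10.35 ± 1.2, gtsf1, in mice and flies a factor of the piRNA pathway, by -9.90 ± 1.35 and avd, an avidin, by -9.89 ± 2.04. Not well above background on any brain-like array were snapc1a, at least 303-fold lower, and the connexin gja11, at least 103-fold lower. For snapc1a, a subunit of a complex used in transcribing small nuclear RNA genes, the controls had levels of 3.16, 2.86 and 2.96.

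Genes in general use were not all level between the sides. Of 13 housekeeping genes 3 were higher and 4 lower, with a median of 0.13. The beta-actin actb2 differed by 0.13 ± 0.16, its relative actb1 by -1.07 ± 0.21, the TATA binding protein tbp by -3.48 ± 0.26 and hprt1 by -2.85 ± 0.32. The higher genes were b2m, of the class I histocompatibility complex (3.49 ± 0.36), sdha, of the respiratory chain (1.97 ± 0.21), and rps18 (0.91 ± 0.99). The glycolytic enzyme gapdh had 5.93, -0.65 and -0.20 on the brain-like arrays, against 6.81, 6.78 and 6.87 on the controls, so that replicate 3 stood near its control and replicates 5 and 6 far under theirs. Its relative gapdhs, looked up after that value was seen, had 6.39, 6.54 and 6.70, against 1.91, 1.30 and 0.88. Of 47 proteasome subunits 26 were lower and 2 higher, with a median of -0.66. The 2 higher were psmb13a (1.85 ± 0.62) and psmb8a (1.63 ± 0.84), subunits of the immunoproteasome.

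Of 31 claudins measured, 10 were higher and 9 lower, against 31.9% higher and 43.8% lower over all genes with a symbol, so that the counts do not set the family apart. The claudin of myelinating cells, cldnk, was highest, at 3.82, 4.34 and 4.27 on the brain-like arrays, against -5.68, -3.23 and -3.36. The lowest was cldng, with 0.59, -3.38 and -4.39, against 7.72, 7.58 and 7.70, and cldn7b differed by -4.78 ± 0.24.

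Zebrafish keep many genes as a and b copies, and in some pairs the copies differed in opposite directions. Of 1314 pairs of symbols that differ only in a final a or b, a comparison made after the values were seen, both copies were higher in 288 and both lower in 244, and in 260 (19.8%) 1 copy was higher and the other lower. Over all genes with a symbol 31.9% were higher and 43.8% lower, and nothing is read from the share of divided pairs. The stathmin copies were widest apart, with stmn1b at 10.88 ± 0.90 and stmn1a at -4.80 ± 0.06. The ATPase copies were nsfa at 9.96 ± 0.92 and nsfb at -3.72 ± 0.24. Of the SoxB factors, sox19a had levels of 0.50, 0.35 and 0.36 on the brain-like arrays and was well above background on only 1 of the 3 controls, so its difference is not given. Its copy sox19b differed by -4.66 ± 0.15, with levels of -1.04, -1.18 and -1.34 on the brain-like arrays, against 3.54, 3.66 and 3.24. In 163 of the 260 pairs the copies were at least 4 log2 units apart.

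**Figure D4:**
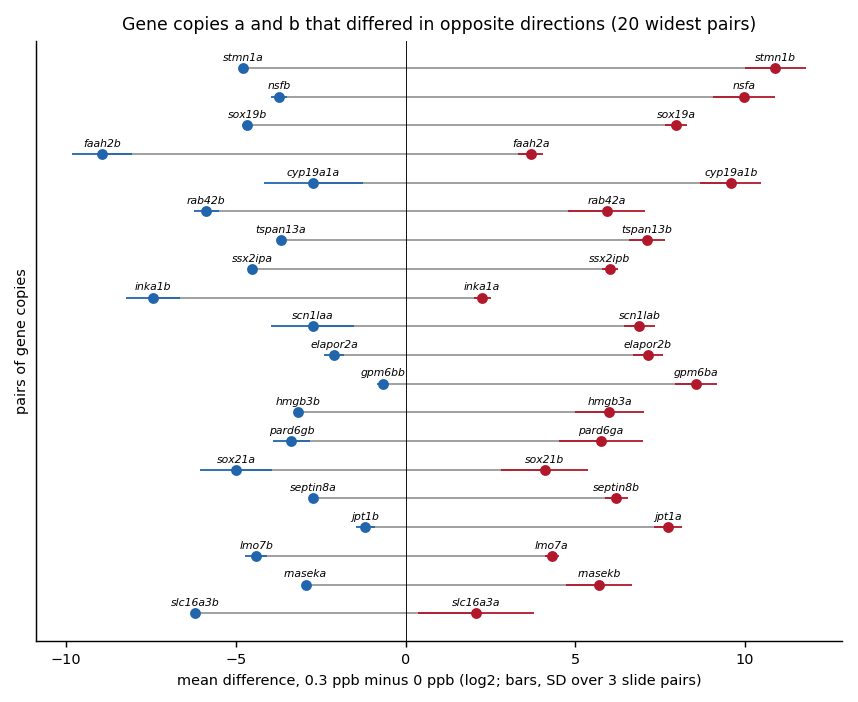
Mean difference of both copies in the 20 pairs of a and b gene copies that lay widest apart in opposite directions (0.3 ppb minus 0 ppb, log2, bars for the SD over 3 slide pairs), red where the brain-like arrays are higher and blue where they are lower. The pair of stmn1b and stmn1a is the widest, at 10.88 and -4.80, while the points of sox19a, tspan13a, scn1lab, scn1laa and elapor2b, not well above background on most arrays of 1 side, are measured differences and no bounds.

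The 3 brain-like arrays were not alike in everything. Of 12076 genes with a symbol above background on all 3, the array of replicate 3 was at least 2 log2 units above both others for 403 genes and below both for 76. For replicate 5 these counts were 3 and 11, and for replicate 6 they were 12 and 61. By this scaling, replicate 3 thus stood furthest from the others. Among the controls, over 12504 genes, replicate 3 was above both others for 22 and below for 271, replicate 5 for 6 and 10, and replicate 6 for 99 and 44. The brain-like array of replicate 3 was also the dimmest of the 6, and the part of its dimness in these counts was not tested. On both sides, replicate 3 was scanned on another date than replicates 5 and 6. What is particular to replicate 3 and what goes with scan date therefore cannot be told apart.

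Genes made in the liver set replicate 3 apart. All 17 liver genes measured were highest on the brain-like array of replicate 3 and lowest on that of replicate 6, and on replicate 3 all 17 exceeded the 14 other arrays too. Their median level was 8.29, 0.26 and -2.90 on the brain-like arrays, against 2.76, 2.5 and 5.49 on the controls. The yolk precursor vtg6 had 9.46, 3.21 and -1.50, against 5.42, 5.26 and 7.34. The liver fatty acid binding protein fabp10a had 9.76, 2.58 and -1.21, against 4.36, 4.1 and 5.49. On the 14 other arrays fabp10a ranged from -5.52 to 6.18. Relative to the mean of the 3 controls, the list's median was 4.94, -2.51 and -5.93 on the brain-like arrays. By that measure it ran from -7.83 to 2.15 on the 14 others. A wide spread in liver genes was thus not particular to the brain-like arrays. No liver gene was counted, and the list's median difference of -1.26 became 2.02 without replicate 6 and -4.92 without replicate 3. Complement c3a.1 had 5.08, -3.19 and -5.70 on the brain-like arrays, against -2.18, -1.56 and 1.28 on the controls. The fibrinogen chain fga, part of the blood clot, had 6.55, -1.03 and -5.6, against 0.41, 1.1 and 2.94.

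Ribosomal protein genes were highest on the same array. Of 80, 78 were highest on the brain-like array of replicate 3, above their control and above all 14 other arrays, and the median level was 8.03, 5.89 and 6.10 on the brain-like arrays, against 6.36, 6.26 and 6.31. The list's median difference was 1.64 in the pair of replicate 3 and -0.30 and -0.15 in the pairs of replicates 5 and 6. As counted over the 3 pairs, 12 were higher and 2 lower, the lower ones being rpl7l1 (-3.46 ± 0.17) and rps27l (-1.09 ± 0.59), relatives of the ribosomal proteins L7 and S27. The estrogen receptor esr1, which in the fish liver drives vitellogenin, had 1.44, -2.07 and -2.07 on the brain-like arrays, against -3.06, -2.27 and -1.57. Rhodopsin, rho, was also high there, with 1.81, -2.48 and -2.11, against -5.98, -4.40 and -4.70. Of 13 eye and pineal genes 4 were highest on that array, and the list's median of 0.65, with 6 higher and 2 lower, turned to -0.18 after quantile normalization, -0.017 after median scaling and -1.03 after spike-in scaling. Its lower genes were the lens crystallin crygmx (-2.21 ± 0.93) and the cone opsin opn1sw2, with -3.22, -6.01 and -5.87, against -2.92, -2.56 and -2.56, which was well above background on 1 of the 3 brain-like arrays.

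Most egg coat transcripts were highest on replicate 3 as well. The median over the 12 genes of the level on the brain-like array was 0.316% of that of the paired ovary in replicate 3, 0.152% in replicate 5 and 0.0667% in replicate 6, and in 9 of the 12 genes the array of replicate 3 was highest and that of replicate 6 lowest. The egg coat gene zp2.5 had 1.80, -0.94 and -3.28 on the brain-like arrays, against 8.41, 8.08 and 8.22 on the controls. Other oocyte lists followed less. Relative to the paired ovary, germ plasm genes had 0.58%, 0.628% and 0.739%, with 2 of 13 highest on replicate 3 and 9 on replicate 5. Meiosis genes had 0.948%, 1.19% and 0.874%, with 8 of 16 highest on replicate 3. Oocyte and maternal chromatin genes had 0.544%, 0.401% and 0.26%, with 8 of 17. The median levels of these lists were nonetheless highest on replicate 3. By this scaling, the median levels of the liver, ribosomal protein and egg coat lists were thus all highest on replicate 3. Relative to the spike-in controls, the 75th percentile itself was at -4.89 on replicate 3 and at -2.10 and -2.21 on replicates 5 and 6. This gap exceeds those between the medians of the ribosomal protein, egg coat and other oocyte lists. With spike-in scaling, replicate 3 is therefore lowest in those lists. The gaps in the liver medians are wider, and replicate 3 stays highest there. The parts of the low signal and of the scan date of replicate 3 in these lists were not tested.

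**Figure D5:**
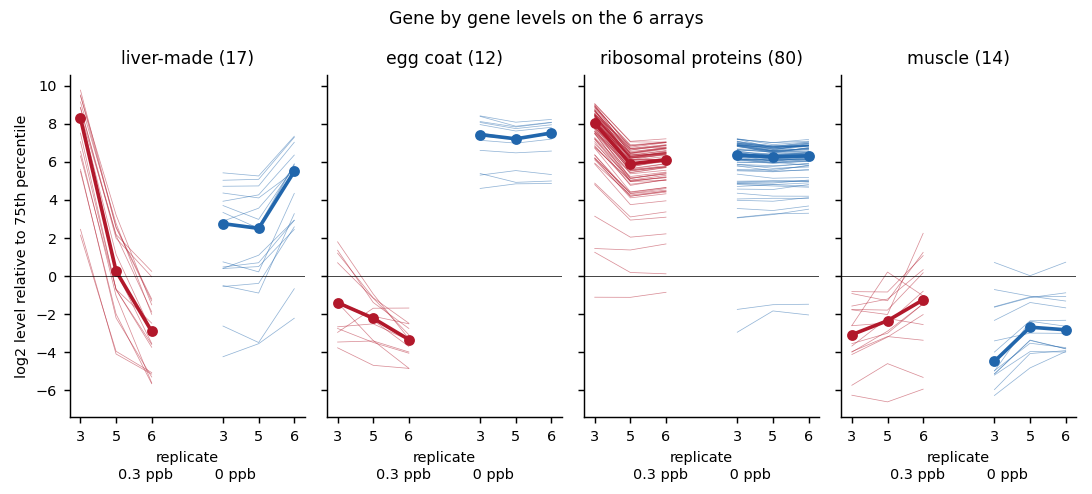
Levels of single genes (thin lines, each joining 1 gene over replicates 3, 5 and 6) and their median (thick line) on the brain-like 0.3 ppb arrays (red, left) and the 0 ppb arrays (blue, right), as log2 relative to the 75th percentile of the array. Liver genes run from a median of 8.29 on the brain-like array of replicate 3 to -2.90 on that of replicate 6, ribosomal protein genes are highest on replicate 3, and the median of muscle genes is highest on replicate 6.

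Most muscle genes, and 3 of 5 skin genes, were highest on replicate 6. Of 14 muscle genes, 8 were higher and 2 lower on the brain-like arrays, and 10 were highest on the array of replicate 6. The muscle parvalbumin pvalb2 had -1.77, -2.01 and 2.25, against -3.40, -2.99 and -3.00, and the myosin heavy chain myhc4 had -3.12, -2.78 and -0.19, against -6.60, -5.24 and -5.52, where it was well above background on 2 of 3. The 2 muscle genes that were lower were the alpha-actin acta1b (-3.96 ± 0.40) and the troponin tnnt3a, at least 18.8-fold lower. The epidermal keratin krt5 had -0.12, -0.90 and 2.01, against -2.72, -1.82 and -4.45. Relative to the mean of the 3 controls, the skin list's median was 1.04, 0.47 and 2.03 on the brain-like arrays. On the 14 other arrays it ranged from -0.47 to 1.79, so that only replicate 6 stood above them. The muscle list's median of 1.15 turned to -0.53 with spike-in scaling and the skin list's of 1.18, with 3 of 5 genes higher, to -0.50. Of 9 red cell genes 7 were higher and 1 lower, with a median of 3.77, and the adult globin hbba1 had 4.61, 7.25 and 7.61, against 3.94, 2.04 and 2.18, lowest on replicate 3. The globin hbbe1.1, of the embryo, was the lower one (-1.34 ± 0.41).

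Some forebrain genes were low on replicate 5. Besides the hypothalamic oxt, the pallial factor emx3 was low there, with -1.59, -4.61 and -1.74 on the brain-like arrays, against -4.17, -2.97 and -2.31, and so was tbr1b, another factor of the pallium, with -0.65, -2.36 and 0.21, against -1.14, -0.97 and -0.97. Of the 10 forebrain factors 6 were lowest on the array of replicate 5, while 11 of the 13 hindbrain and spinal cord factors were highest on it. The factor hoxd3a had -3.10, -1.37 and -3.25, against -5.57, -3.85 and -4.20. The polyamine regulator oaz1a was the furthest apart, with 5.26, -3.98 and 5.36, against 4.54, 4.35 and 5.16, and on the 14 other arrays it ranged from -5.35 to 5.69. The median level of the hindbrain and spinal cord list was -4.46, -2.85 and -3.62 on the brain-like arrays, against -4.51, -3.07 and -3.95 on the controls, so that replicate 5 was highest on both sides. That of the forebrain list was -0.63, -1.42 and -0.42, against -5.28, -3.99 and -3.54, with replicate 5 lowest on the brain-like side only. Taken gene by gene relative to the mean of the 3 controls, however, the forebrain median was 3.07, 3.49 and 3.47, so that replicate 5 was not low by that measure. Of the 10 hypothalamic and thalamic factors 7 were highest on replicate 5 and 1 lowest.

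Of the smaller lists for other tissues, gut had 1 of 4 genes higher, kidney 1 of 5 higher and 1 lower, and testis 2 of 5 higher, with medians of -0.47, 0.56 and -0.48. The gut gene fabp2 (4.77 ± 0.76) and the kidney gene pax2a (5.54 ± 0.63), which is also a factor of the midbrain-hindbrain boundary, were those counted higher. The androgen enzyme cyp11c1, on the testis list, differed by 1.41 ± 0.55 and turned to -0.27 with spike-in scaling.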

How the data were processed

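The authors hybridized each RNA sample to its own array and read the spots with Agilent Feature Extraction 11.5. What they deposited is that software's spot intensity, corrected for background within its array and not normalized between arrays. The authors' later GeneSpring normalization is not in them. Here log2 of the deposited intensity was taken, spots marked as outliers were dropped, and the 75th percentile over the remaining non-control spots was subtracted on each array. Probes had to be well above background on all 3 arrays of either side, which kept 95737 of 128291. Values were averaged over spots and then over the probes for a target, and a symbol took its RefSeq target with the most probes. A target was taken as well above background on an array where any of its kept probes was. Its averaged level could therefore lie under the lowest signal well above background. Of 15090 RefSeq accessions on the array 13710 matched a symbol, and 10 of 139 symbols with several targets had targets counted both ways. Where a gene was not well above background on any array of a side, its bound uses, per array, the higher of its own level and the lowest signal well above background. R 4.3.3 with limma 3.58.1 and the package data.table (version 1.17.8) was used, and Python 3.11.15 with pandas 2.3.3 and matplotlib 3.10.9. The procedure was tested on simulated data.

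The arrays, markers and lists were chosen with earlier results of these data known. Named in the text are the 6 markers, some of the members of each list that differed most, by measured difference or by bound, most of those counted against their list, some of the largest differences outside the lists and the widest ranges among the 3 brain-like arrays, and the genes the study discussed. Other members and genes were named after their values were seen, as were the comparisons of single arrays and of gene copies. Precision is limited by 3 arrays per side. Replicate 1 was left out of the 14 other arrays because the grid was marked as poor on all 4 of its arrays. Of the arrays kept, 3 ppb replicate 6 and 30 ppb replicate 2 were marked alike.

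Alternatives were quantile, median, spike-in and detected-probe scaling, normexp with offset 50 on the median spot signal, other filters, the median over probes, each replicate left out, all 5 usable controls, no pairing, levels raised to the floor, and folds of 2 and 4. Spike-in scaling and the floor were added after the data were seen.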

Additional observations from a re-analysis of the deposited data

Results flagged for a closer look

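Among the 0.3 ppb arrays of replicates 2 to 6, the follicle steroid and somatic list had a median of -1.84 on the brain-like array of replicate 3, relative to the mean of the 0 ppb arrays of replicates 3, 5 and 6, while the other 4 arrays lay between -0.61 and -0.24. Dixon's ratio marked it, at 0.766 against a critical value of 0.71. The ratio was computed in 80 groups of 5 arrays, and in groups of like samples chance marks about 1 in 20. The 0.3 ppb groups hold 3 brain-like and 2 ovary-like arrays, which lie far apart in most lists, so the ratio could hardly mark an array there, and nothing is read from the absence of other marks.

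On 1 array outside the contrast, 3 ppb replicate 6, 5 brain lists stood at least 1.5-fold above every 0 ppb array. Relative to the same 0 ppb mean, its medians were 1.78 for forebrain factors, 1.8 for glutamate signalling, 1.24 for pan-neuronal genes, 1.65 for neuropeptides and 1.01 for radial glial genes. The highest 0 ppb arrays had 0.45, 0.57, 0.24, 0.56 and 0.35 in the same lists. Its synaptic vesicle list, at 0.093, and its hypothalamic list, at 0.51, were below those of 0 ppb replicate 5, at 0.45 and 0.65. Lists of other tissues were as high on it, with 1.73 for gut and 1.7 for skin. The spot grid of that array was marked as poor, 40.6% of its probes were well above background, and its lowest signal well above background was at a level of -1.85, against -6.66 to -5.46 on the other 13 arrays outside the contrast. The part of this raised floor in these medians was not tested.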

How the results depend on the processing

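The counts of targets, 28649 higher and 17162 lower, became 12601 and 32777 with spike-in scaling and 18049 and 7833 at a fold of 4. Without the pairing by slide (no replicate block), a target was counted only where the sides also did not overlap. By this other rule, 24951 were higher and 14598 lower. The same rule was used with all 5 usable controls. Leaving out 1 replicate gave 29050 to 29427 higher and 17884 to 18244 lower. Of the 45811 targets counted, 2080 were counted in the other direction with spike-in scaling, 69 with normexp, 50 with detection on all 6 arrays, 11 with levels raised to the floor, 7 with the median over probes, 6 with no filter and 0 with each other alternative. With 1 replicate left out, no pairing or another fold, the rule could not give the other direction, so nothing is read from the 0 there. The spike-in signal itself was 13.59 on the brain-like array of replicate 3 and 12.17 and 12.21 on those of replicates 5 and 6, against 12.35, 12.23 and 12.11 on the controls (log2 median of 8 probes). Beside the lists and genes given above, spike-in scaling turned cyt1l to -0.50, rps18 to -0.77, rpl31 to -0.43 and psmb8a to -0.045, and median scaling turned inha to -0.0664. For cyp19a1b the difference of 9.58 was 8.79 with levels raised to the floor. The values restated here are those that turned: the pituitary list at 0.26 with normexp and 1.22 on all 6 arrays, the eye list at -0.18 (quantile), -0.017 (median) and -1.03 (spike-in), the liver list between -4.92 and 2.02 with 1 replicate left out, muscle at -0.53 and skin at -0.50 (spike-in), fshb, hoxb8a and hoxa9a at 0.026, 0.33 and 0.37 (normexp), and inha, inhbaa, nr5a1a, nr5a1b and cyp11c1 at -1.08, -0.17, -0.74, -0.004 and -0.27 (spike-in). The cause was not tested.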
